A study of Mus musculus with 12 samples.

Results

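The comparison was between the 6 mouse induced pluripotent stem (iPS) cell clones whose names carry the number 979 and the other 6 clones, out of 12 clones with 1 array each. The members were taken by name alone. The 979 clones were 979F1, 979F2 and 979F3, which lack functional Aid (Aid-/-), and 979B1, 979B3 and 979B4, which are Aid+/+. The other clones were 967B2, 967B4 and 967B6 (Aid+/+) and 981E1, 981E4 and 981E5 (Aid-/-), so each side held 3 clones of each genotype. Aid is the activation-induced cytidine deaminase, which edits antibody genes in B cells. Every clone was derived from male mouse embryonic fibroblasts of a mixed C57BL6, DBA and 129S4 background with a Nanog-GFP reporter, was reprogrammed with retroviruses, and was cultured in LIF, serum and puromycin on gelatin at passage 6. The fibroblasts were made from individual embryos, and each clone is a line from 1 colony, so the parental embryos of the sides need not have been alike. All experiment numbers were read from the clone names. The origin of clones 981E1, 981E4 and 981E5 is uncertain, since the paper's list of experiments holds none under their number. The 967B arrays were on slide 1, the 979F arrays on slide 2, and the 979B arrays on slide 3 together with those of 981E1, 981E4 and 981E5. These last 3 clones are called the other Aid-/- clones.

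Mouse iPS cells in LIF and serum hold a naive pluripotent state, in which LIF signalling and a network around Oct3/4, Sox2 and Nanog maintain self-renewal. Signalling through FGF and ERK, by contrast, favours exit from this state and switches on immediate-early genes such as Egr1. Lines of mixed strain also differ in the parental alleles they carry, and closely related gene copies lie side by side on several mouse chromosomes.

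A block of genes at the start of chromosome 14 was lower in the 979 clones, and some of its genes are near-identical copies of each other. RefSeq promoter windows of 300 bases (build GRCm38.p6, from 250 bases before to 50 bases after the gene's start) are given for 3 such copies to show how alike they are: Gm10413 and Gm5797, which lie within the first 12 genes of the chromosome, and Gm5458, which lies further along as gene 51 in order. The windows lie at chr14:3394843-3395142 on the + strand for Gm10413, chr14:7332346-7332645 on the - strand for Gm5797, and chr14:19602538-19602837 on the - strand for Gm5458. They are written 5′ to 3′, and capitals mark the 102 bases that all 3 share without a mismatch.
Gm10413: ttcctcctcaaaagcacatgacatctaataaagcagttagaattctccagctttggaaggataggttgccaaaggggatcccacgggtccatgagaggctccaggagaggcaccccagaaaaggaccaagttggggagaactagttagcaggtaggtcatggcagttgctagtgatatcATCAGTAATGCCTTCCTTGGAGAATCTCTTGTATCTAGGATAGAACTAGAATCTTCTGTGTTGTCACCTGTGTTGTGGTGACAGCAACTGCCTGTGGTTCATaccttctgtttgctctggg
Gm5797: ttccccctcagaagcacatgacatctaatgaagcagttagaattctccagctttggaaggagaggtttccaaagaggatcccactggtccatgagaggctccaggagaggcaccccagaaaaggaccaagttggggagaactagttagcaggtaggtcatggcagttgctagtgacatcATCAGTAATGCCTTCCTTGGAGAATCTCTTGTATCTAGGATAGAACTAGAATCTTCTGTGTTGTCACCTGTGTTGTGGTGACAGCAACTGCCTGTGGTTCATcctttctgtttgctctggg
Gm5458: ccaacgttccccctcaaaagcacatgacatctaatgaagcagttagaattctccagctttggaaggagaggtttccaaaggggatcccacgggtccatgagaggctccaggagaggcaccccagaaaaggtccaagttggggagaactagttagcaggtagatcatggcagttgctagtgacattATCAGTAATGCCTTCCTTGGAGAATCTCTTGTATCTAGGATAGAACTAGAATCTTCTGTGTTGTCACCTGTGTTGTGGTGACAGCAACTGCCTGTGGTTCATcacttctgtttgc
Without gaps, Gm10413 and Gm5797 were identical at 290 of 300 positions, and Gm5797 and Gm5458 at 286 of 294. The windows of Gm3696, Gm3264 and Gm10406, other genes of the block, matched that of Gm10413 at only 30.5% to 30.8% of positions. They matched each other at 62.8% to 78.7%. Windows at gene starts, compared without gaps, cannot tell whether these genes belong to 1 family. The array's probes for near-identical copies may share transcripts, so their differences were not independent of each other and the copy responsible cannot be assigned.

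Genotype was balanced over the sides and was kept as a covariate in limma's fit, with Benjamini-Hochberg adjustment of p over all 55681 non-control probes. Values are log2 signals relative to the 75th percentile of the array. At an adjusted p under 0.05 and a fold over 2, 218 probes (0.392% of all) were higher and 363 (0.652%) lower in the 979 clones. At the adjusted p alone, 706 probes (1.27%) were higher and 1003 (1.80%) lower, 3.07% in all. The 581 probes past both thresholds belonged to 75 higher and 132 lower named genes, with 217 lincRNA probes and further probes without a symbol here beside them. The sides did not overlap for 1500 of 55580 probes with 12 values (2.70%). The median difference over all probes was -0.02. Slide as a random block gave 221 higher and 365 lower probes. The block correlation was -0.02, and each series lay on a single slide, so this fit cannot separate slides from clone series. Within slide 3, which sets 979B against the other Aid-/- clones and so cannot tell genotype and experiment apart, 268 probes were higher and 422 lower, and 245 of these were among the 581. Bulk RNA was measured, so fewer cells of a type and less RNA per cell cannot be told apart. All comparisons rest on 6 clones a side from 4 clone series, and p-values measure the spread between clones. The 979 clones share their experiment number, and the clones of a series share genotype and slide. The p-values therefore do not measure the spread between experiments or parental embryos.

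Pairs of clones correlated with a Pearson r between 0.971 and 0.997 over probes well above background on all 12 arrays. Clone 967B4 had the lowest median correlation with the other clones (0.977), and 981E5 had the next lowest (0.979). In 981E5 the genes of chromosome 8 were higher by a median of 0.35 on the log2 scale than in the other 11 clones, and the next highest on that measure was 979B3 at 0.0341. Clone 979F3 had 0 of 35 Y-linked probes well above background, against 10 to 21 in the others. The Aid probes, which lie in a part of the gene that is still transcribed in Aid-/- clones, were higher in every Aid-/- clone (0.67 to 2.90) than in every Aid+/+ clone (-5.63 to -2.76) and therefore check the labels but not the deletion.

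Among the 12 genes with the largest increase, the 979 clones were separated from the other clones for every gene. Their selection for large differences on the same clones favours this. Of the 581 probes past both thresholds, 382 had no overlap, against 2.70% of all probes with 12 values. Asb14, an ankyrin repeat protein with a SOCS box, had signals of -3.96 to -2.85 (median -3.33) in the 979 clones and -7.37 to -6.36 (median -7.13) in the others. It was well above background on all 6 arrays of the 979 clones and on 0 of the others, at least 3.67-fold higher (log2 difference 3.65 ± 0.17 SE, limma adjusted p = 1.37e-05). Within the genotypes it was at least 4.63-fold higher in Aid+/+ (adjusted p = 8.3e-05) and at least 2.90-fold higher in Aid-/- clones (adjusted p = 0.000282). Both clone series of the 979 side thus lay above background where no clone of the other side did.

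The neighbouring genes Crisp1 and Crisp3 of chromosome 17 encode cysteine-rich secretory proteins of the male reproductive tract. Crisp3 was between 1.30 and 1.96 (median 1.70) in the 979 clones and between -1.52 and -0.44 (median -0.76) in the others, 5.59-fold higher (adjusted p = 3.38e-05). Crisp1 ran from -0.79 to -0.21 (median -0.32) against -3.95 to -2.42 (median -2.73), 5.86-fold higher (adjusted p = 9.18e-05). Neither gene overlapped between the sides, and both were detected in every clone.

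Pnp2, a purine nucleoside phosphorylase, was at 1.50 to 1.98 (median 1.63) in the 979 clones and at -4.83 to 0.11 (median -1.65) in the others, 11.2-fold higher (adjusted p = 0.0135). The comparison side was split by series for this gene, since the 967B clones lay at -4.83 to -2.85 and the other Aid-/- clones at -0.46 to 0.11. Cldn5, a tight junction protein, showed the reverse split on the 979 side. It was at 0.26 to 0.44 in the 979F clones and at -0.88 to -0.79 in the 979B clones, all above the -3.35 to -1.56 of the other clones (4.05-fold, adjusted p = 0.0171). Its difference was 0.87 in Aid+/+ (adjusted p = 0.12) and 3.16 in Aid-/- clones (adjusted p = 0.000282), with an interaction adjusted p of 0.0284 in limma. Gm3219 was 4.17-fold higher (adjusted p = 0.0172) and was one of the genes whose difference was unlike in the Aid+/+ and Aid-/- clones.

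Further increases were seen for 1500009C09Rik (3.98-fold, adjusted p = 0.00325), for the disintegrin family member Adam23 (3.46-fold, adjusted p = 0.00318) and for Fn3k, the fructosamine kinase (at least 1.77-fold, adjusted p = 0.00557). The other probe of Fn3k differed by only 0.40 (adjusted p = 0.455), whereas both probes of Adam23 rose by 1.78 to 1.79. Gfra3, a receptor for the artemin growth factor, rose by 2.44 on the log2 scale (adjusted p = 0.042), Obox6, an oocyte homeobox gene, by 2.43 (adjusted p = 0.0496), and Sox30, a transcription factor of the testis, by 2.13 (adjusted p = 0.0292). These 3 genes had widely spread comparison clones, of which 967B4 was the lowest for Obox6 and Sox30. Gfra3 lost its call in 10, Obox6 in 10 and Sox30 in 8 of the 12 fits that left out 1 clone (highest adjusted p 0.101, 0.113 and 0.0749), and the other 9 genes kept it in each fit.

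The 12 genes with the largest decrease also showed no overlap between the sides, and all 12 kept their call whichever clone was left out. Their selection on the same clones favours both. Ccnb1ip1, a ubiquitin ligase needed for meiotic crossing over, was between -3.03 and -2.12 (median -2.49) in the 979 clones and between 0.10 and 1.74 (median 0.82) in the others, a 10.4-fold decrease (adjusted p = 7.38e-05). Fam25c was at 0.80 to 1.92 (median 1.36) against 3.68 to 4.70 (median 4.27), 7.25-fold lower (adjusted p = 0.000104). Mmrn2, a matrix protein of blood vessels, was at -0.93 to -0.07 (median -0.72) against 1.39 to 2.13 (median 1.67), 5.10-fold lower (adjusted p = 4.95e-05). All 3 genes are on chromosome 14, and Fam25c and Mmrn2 lie close together in gene order with Sncg, a synuclein, between them (1.78-fold lower, adjusted p = 0.0213).

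Slc25a18, a mitochondrial glutamate carrier, was well above background on 0 arrays of the 979 clones and on all 6 of the others, at least 2.45-fold lower (adjusted p = 9.75e-05). Edn1, the precursor of the vessel-constricting peptide endothelin-1, was between -5.45 and -4.66 (median -5.17) in the 979 clones and between -4.15 and -1.59 (median -2.09) in the others (6.60-fold lower, adjusted p = 0.00155), with 967B4 at -4.15 as the lowest of the comparison clones. It was well above background on only 1 array of the 979 clones and on all 6 of the others, so the size of the decrease is uncertain. In Aid+/+ clones it is bounded at at least 4.27-fold. Egr2 and Atf3, both transcription factors, completed the decreases outside chromosome 14 and are described with the immediate-early genes.

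**Figure D1:**
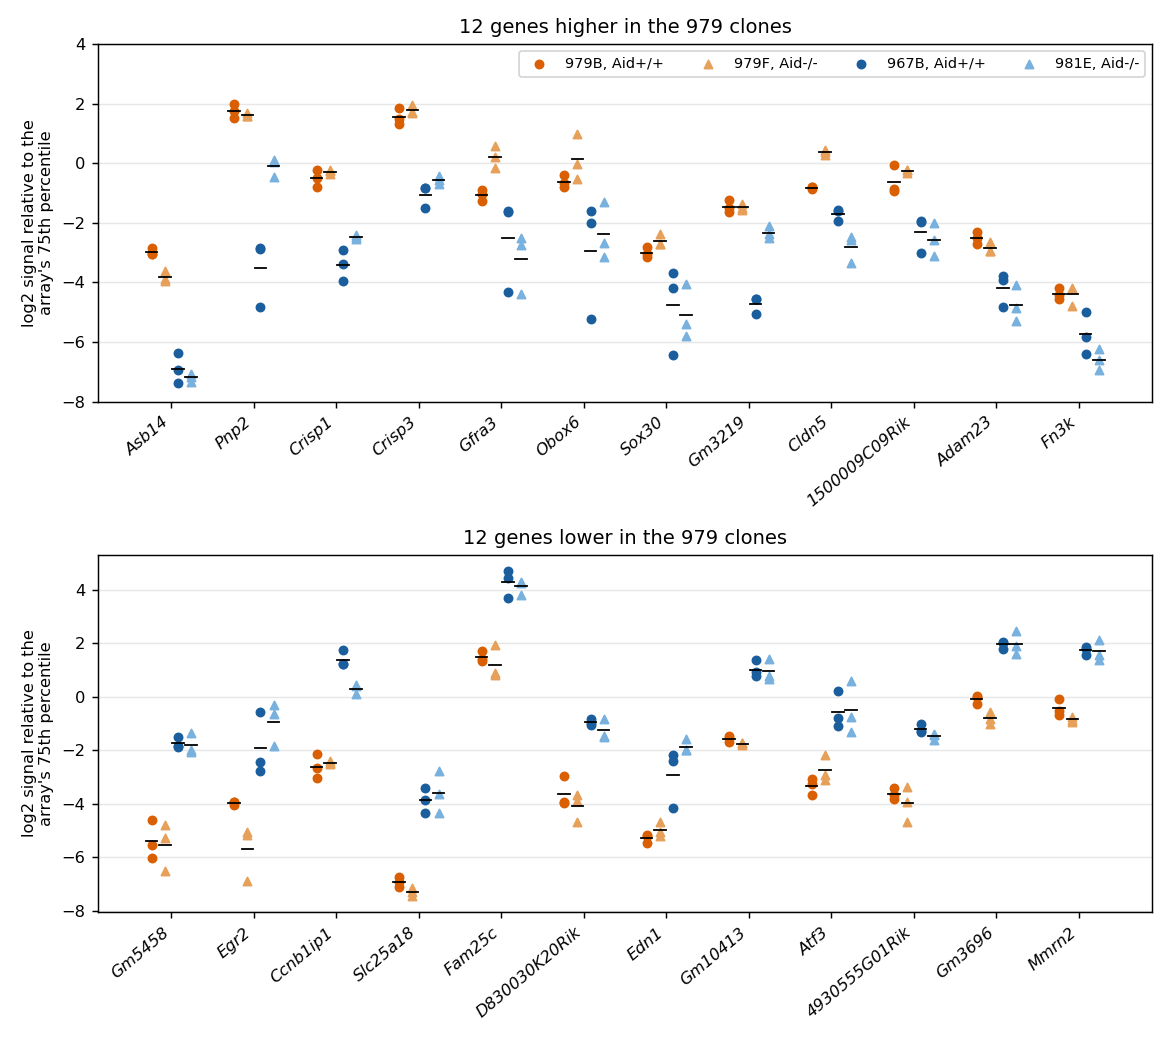
Log2 signal relative to the array's 75th percentile in each of the 12 clones for the 12 genes with the largest increase (upper panel) and decrease (lower panel) in the 979 clones, with points for clones and short bars for the mean of each clone series of 3. The orange clones (979) and the blue clones (all others) do not overlap for any of these genes, which were selected for large differences on these clones. Pnp2 and Gm3219 show the wide gap between the genotypes of the blue clones.

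The 3 copies of chromosome 14 were among the lower genes. Gm10413 was between -1.81 and -1.45 (median -1.70) in the 979 clones and between 0.65 and 1.42 (median 0.85) in the others, 6.22-fold lower (adjusted p = 3.38e-05). Gm5797 was at 1.94 to 2.68 (median 2.39) against 4.11 to 4.81 (median 4.35), 4.23-fold lower (adjusted p = 7.38e-05). Gm5458 was at -6.50 to -4.62 (median -5.41) against -2.06 to -1.35 (median -1.85), 12.9-fold lower (adjusted p = 0.00013), and was well above background on 2 of the 6 arrays of the 979 clones. The 3 copies whose windows are printed above were thus lower in every 979 clone than in any other clone. Of the first 12 genes in order along chromosome 14, 11 were lower at the adjusted p, among them Gm3696 (5.32-fold lower, adjusted p = 9.18e-05), 4930555G01Rik (5.52-fold, 9.18e-05) and D830030K20Rik (6.71-fold, adjusted p = 0.000125). All 4 probes of Gm5458 were lower, by -3.69 on the log2 scale for the probe given above and by -2.62, -2.04 and -1.77 for the others. The last 2 were well above background on all arrays, so the size of its decrease is uncertain. All 4 probes of 4930555G01Rik were lower too, 1 of them well above background on 0 arrays. Of the 3 probes of D830030K20Rik, however, the other 2 differed by -0.48 and 0.02 (adjusted p = 0.164 and 0.94).

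Of the 12 genes with the largest decrease, 8 lie on chromosome 14, as do 3 of the 12 with the largest increase (Asb14, Pnp2 and Gm3219). Chromosome 14 had the largest share of called gene probes of any chromosome, 7.72% of 945 (22 higher, 51 lower), against 1.59% to 4.04% on the other autosomes and the X. Of its 728 genes, 57 were called, 20 higher and 37 lower. With the genes in order split into 4 equal parts, the share was 15.3% in the first part, 8.97% in the next, 2.19% after that and 3.77% in the last. Without 981E5 the share for the whole chromosome was 6.56%, and without 967B4 and 981E5 it was 11.7%, with 20.4%, 10.3%, 10.1% and 5.44% in the 4 parts. The count of called probes rose from 73 to 111 in the latter fit. Calls rose elsewhere too in that fit, from 2.71% to 5.94% on chromosome 1 and from 1.92% to 4.43% on chromosome 2. Probes past both thresholds rose from 581 to 872 over the whole array, so the rise was not particular to chromosome 14. The decline along the chromosome was thus less sharp without the 2 clones that stood apart.

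Genes of the first 2 parts outside the block moved in both directions. The following genes were chosen after their values were seen. Pdhb, a subunit of pyruvate dehydrogenase, was at 5.69 to 6.07 (median 5.82) in the 979 clones and 4.51 to 4.86 (median 4.67) in the others, 2.27-fold higher (adjusted p = 4.95e-05). Hesx1, a homeobox repressor of the anterior neural plate, was at -0.62 to 0.33 (median 0.19) against -2.43 to -1.39 (median -1.66), 3.42-fold higher (adjusted p = 0.00203). Zmiz1 was 2.42-fold, Plac9a 2.61-fold and Tmem254a 2.68-fold higher, and these 3 lie near each other in gene order. Gch1, which starts the synthesis of the cofactor tetrahydrobiopterin, was 2.34-fold lower (adjusted p = 0.00138), and Ktn1, the kinesin-binding protein kinectin, 2.26-fold lower (adjusted p = 0.000103).

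**Figure D2:**
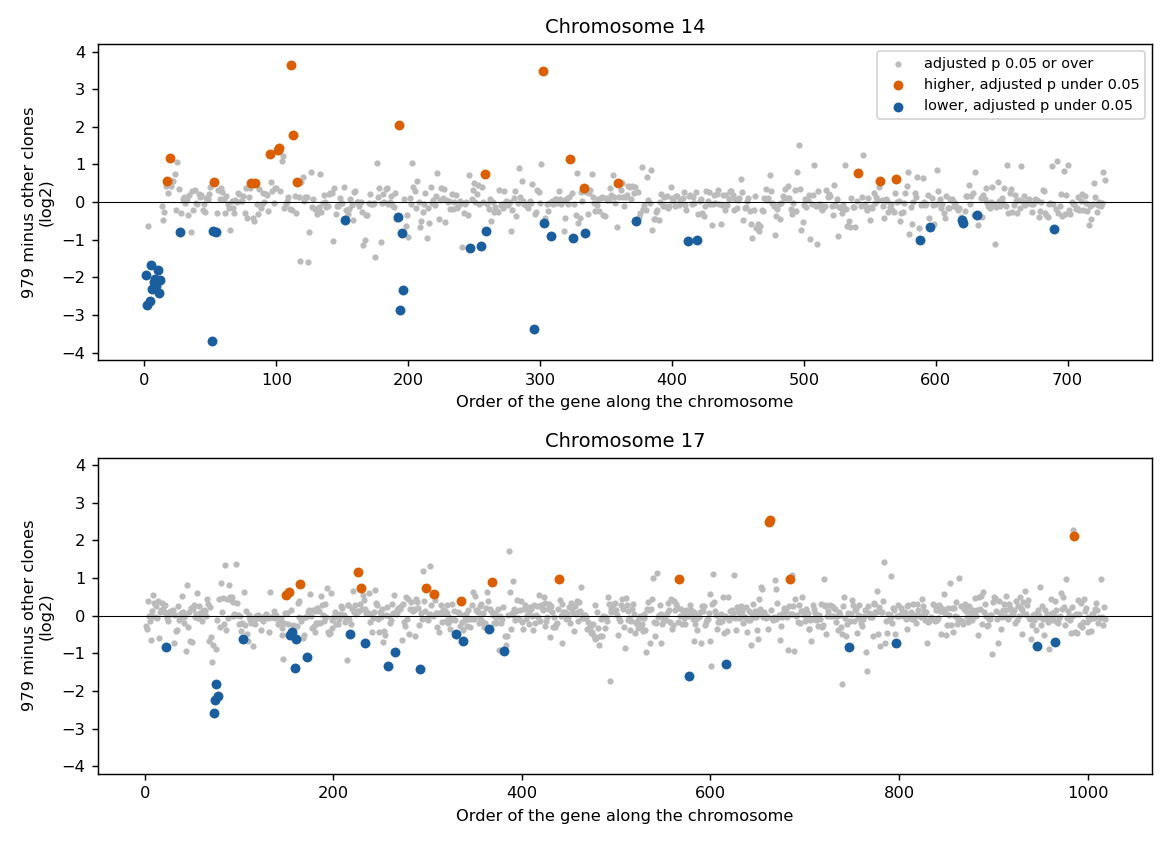
Log2 difference between the 979 and the other clones for the genes of chromosome 14 (728 genes) and chromosome 17 (1018 genes), in the order of the genes, with 1 probe a gene (the one with the smallest p). Coloured points passed an adjusted p under 0.05. The lower block at the left end of chromosome 14 holds 11 of the first 12 genes, and on chromosome 17 a group of 4 lower points lies near gene 75 and the pair Crisp3 and Crisp1 near gene 660.

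**Figure D3:**
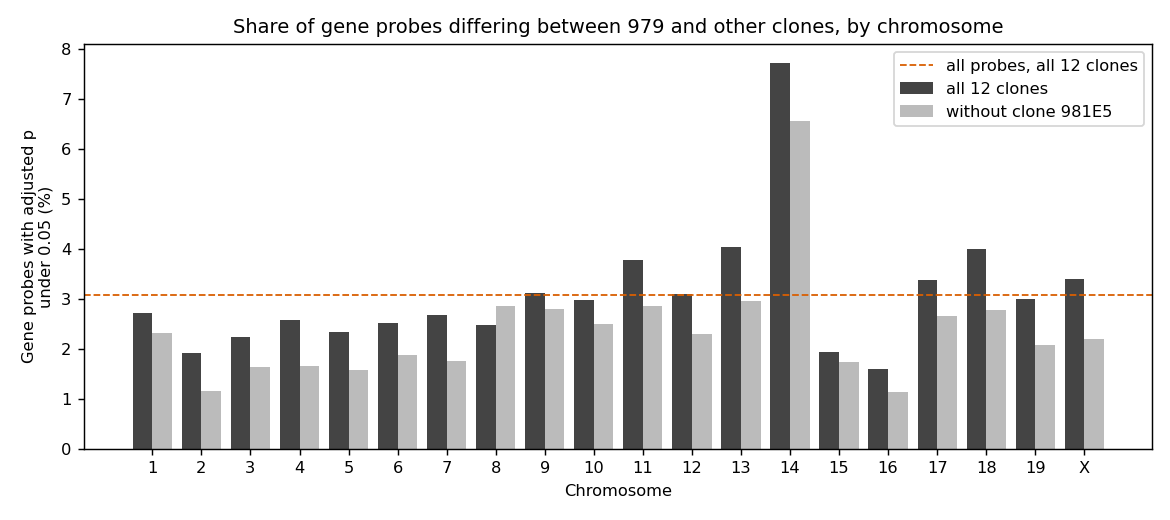
Share of gene probes with an adjusted p under 0.05 on each chromosome, in the fit of all 12 clones (dark bars) and without clone 981E5 (light bars), with the share over all probes (3.07%) as a dashed line. Chromosome 14 has the highest bar in both fits, 7.72% and 6.56%.

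On chromosome 17, 41 of 1018 genes were called, and the share of called probes was 3.37%, close to the 3.07% over all probes. Of the genes chosen after their values were seen, 3 sperm motility kinase genes that lie together, Smok2a, Smok2b and Smok4a, were all lower. Smok4a was well above background on 0 arrays of the 979 clones and 4 of the other 6, and Smok2a on 0 and 4, so the decreases are bounded at at least 1.50-fold (adjusted p = 4.95e-05) and 1.55-fold (adjusted p = 0.00599). A stretch of 23 genes from Zfp52 to Zfp213 held 15 zinc finger genes, of which 3 were higher and 5 lower. The largest of these differences were those of Zfp944 (2.62-fold lower, adjusted p = 0.00107) and Zfp213 (2.15-fold lower, adjusted p = 0.000464). These zinc finger genes resemble each other in sequence, so shared signal between their probes was possible. On chromosome 8, which was raised in 981E5, 19 of 1294 gene probes were lower and 13 higher in the 979 clones. That share of 2.47% was below the 3.07% over all probes. Without 981E5, 19 were lower and 18 higher (2.86%). Without 967B4, 44 were lower, but probes past both thresholds also rose over the whole array in that fit, from 581 to 845.

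LincRNA regions are intervals of the genome from which long non-coding transcripts are made. Of their 16194 probes, 80 were higher and 137 lower past both thresholds. Over all 55681 probes, 218 (0.392%) were higher and 363 (0.652%) lower. The largest difference of all was at chr8:124364048-124365705 (build mm9, forward strand), where 1 probe had signals of -1.63 to -1.44 (median -1.50) in the 979 clones and -6.99 to -4.91 (median -6.05) in the others. It was well above background on all 6 arrays of the 979 clones and on 0 of the others, at least 13.2-fold higher (adjusted p = 4.95e-05). A second probe of the same region was at -1.95 to -1.77 (median -1.82) against -5.52 to -4.40 (median -4.81), 8.29-fold higher (adjusted p = 3.38e-05). The spread between the 979 clones was small for both probes, and 979F and 979B did not separate. One probe of a region at chr16:7947710-7948066 (mm9, reverse strand) was at least 3.45-fold higher (adjusted p = 0.000118), with 6 and 0 arrays above background. A further probe of this region differed by 2.47 on the log2 scale (adjusted p = 0.000118) and was above background on all 6 arrays of the 979 clones and on 3 of the others.

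Immediate-early genes are switched on within minutes of a growth signal, and the ERK feedback genes are induced with them and damp the pathway. The list of both held 23 genes with 25 probes, of which 5 were lower, 1 was higher and 19 did not pass the test, against 1.80% lower and 1.27% higher over all probes. The median difference over the list was -0.34, against -0.02 over all probes. Without 981E5 the counts were also 5 lower and 1 higher, though Egr1 was no longer among the lower (adjusted p = 0.0513). Without 967B4, 6 were lower and 1 was higher.

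Egr2, a zinc finger factor of early growth response, was between -6.88 and -3.92 (median -4.55) in the 979 clones and between -2.76 and -0.32 (median -1.23) in the others, 10.6-fold lower (adjusted p = 0.0134). It was well above background on 3 of 6 arrays of the 979 clones and on all 6 of the others. Its relative Egr1 was between 0.10 and 1.66 (median 0.76) against 1.84 to 3.74 (median 2.49), 3.38-fold lower (adjusted p = 0.0224). In both genes the 979F clones lay below the 979B clones, and 967B4 was the highest of the 967B clones. Atf3, a stress-induced factor of the ATF family, was at -3.67 to -2.17 (median -3.08) against -1.32 to 0.61 (median -0.77), 5.66-fold lower (adjusted p = 0.00429).

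Jun, a subunit of AP-1, was at 2.37 to 2.83 (median 2.60) in the 979 clones and at 2.62 to 3.95 (median 3.66) in the others, 1.83-fold lower (adjusted p = 0.0175). Phlda1, a target of ERK, ran from 0.73 to 1.68 (median 1.32) against 1.37 to 2.92 (median 2.19), 1.94-fold lower (adjusted p = 0.00718). The sides overlapped for both genes, and the other Aid-/- clones were the highest for each. Ier3 alone moved the other way, at 0.89 to 1.72 (median 0.93) against -0.26 to 0.57 (median 0.14), 1.98-fold higher (adjusted p = 0.0176).

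Fos, the partner of Jun, differed by -1.45 (adjusted p = 0.268) and Fosb by -1.30 (adjusted p = 0.19), and clone 967B4 had a Fos signal of 2.65, far above the -1.49 to -1.07 of the other comparison clones. The ERK feedback genes Dusp6 (-0.42, adjusted p = 0.217), Spry2 (-0.34, 0.199), Spry4 (0.17, 0.884) and Etv5 (-0.07, 0.884) did not pass the test. The call of Egr1 was lost in 5 of the 12 fits that left out 1 clone (without each 979F clone, without 979B3 and without 981E5, adjusted p up to 0.0596). Those of Egr2, Atf3, Jun, Phlda1 and Ier3 were kept in every such fit. Other signal-induced genes outside the list, chosen after their values were seen, were Ccn1 (log2 difference -1.88, adjusted p = 7.38e-05) and Ccn2 (-1.65, adjusted p = 0.00138), both matricellular targets of YAP, and Nppb (-2.21, adjusted p = 8.23e-05), Dusp8 (-2.07, adjusted p = 0.00979) and Egr4 (-1.36, adjusted p = 0.00486).

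**Figure D4:**
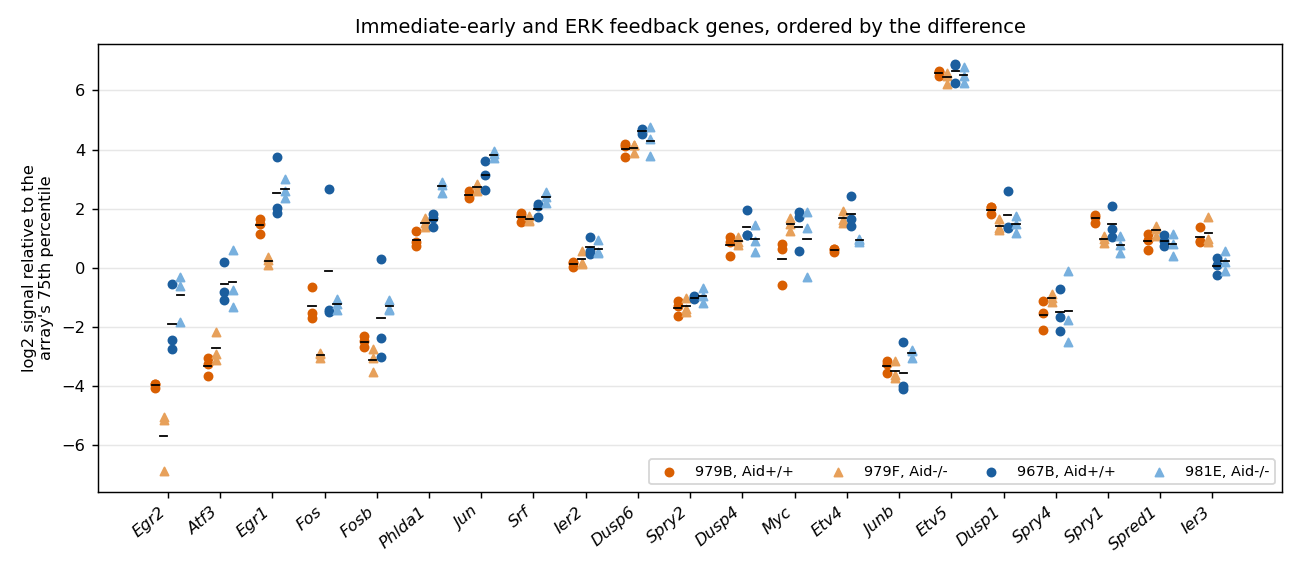
Log2 signal relative to the array's 75th percentile in each clone for 21 immediate-early and ERK feedback genes, ordered by the difference between the 979 and the other clones, with the bars at the mean of each clone series. Egr2, Atf3 and Egr1 at the left have no overlap between the sides, while the feedback genes in the middle and at the right overlap, and Ier3 at the right end is higher in the 979 clones.

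A promoter window of Egr2 (RefSeq, GRCm38.p6, chr10:67537316-67537615, + strand) is shown for the gene of the list with the largest difference, with a CArG box, the site of serum response factor, in capitals.
Egr2: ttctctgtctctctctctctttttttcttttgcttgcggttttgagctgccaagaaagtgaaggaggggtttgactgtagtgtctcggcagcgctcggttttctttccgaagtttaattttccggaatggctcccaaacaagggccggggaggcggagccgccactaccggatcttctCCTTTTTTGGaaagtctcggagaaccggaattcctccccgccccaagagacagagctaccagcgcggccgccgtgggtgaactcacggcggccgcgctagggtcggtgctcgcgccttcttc
The CArG box was searched on both strands and is its own reverse complement in form. It was found in 4 of the 5 windows of Egr2 and in 3 of the 15 list genes that have a window (the others were Dusp5 and Srf), against 488 of 27025 genes with a window (1.81%) and 535 of 32851 windows (1.63%). The windows of Atf3, Jun and Ier3 held no match.

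The pluripotency list was detected throughout, with all 39 probes of its 29 genes well above background on all 12 arrays, so that the labelled cell type was borne out by its defining markers. On the list, 3 of 39 probes were lower and none higher, against 1.80% lower and 1.27% higher over all probes, with a median difference of -0.11. Tbx3, a factor of the naive network, was at 2.41 to 2.96 (median 2.60) in the 979 clones and at 3.50 to 4.46 (median 3.97) in the others, 2.57-fold lower (adjusted p = 0.00292). Nr5a2, a nuclear receptor that can activate Oct3/4, was at -2.60 to -1.93 (median -2.26) against -1.82 to -0.59 (median -1.25), 2.03-fold lower (adjusted p = 0.0258), and its second probe missed the threshold (-0.96, adjusted p = 0.0554). Klf2, a Krüppel-like factor of the same network, was at 4.81 to 5.02 (median 4.89) against 5.04 to 6.23 (median 5.52), 1.56-fold lower (adjusted p = 0.0469).

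For Klf2 the other Aid-/- clones lay at 5.75 to 6.23 and the 967B clones at 5.04 to 5.29. The difference in Tbx3 was -1.11 in Aid+/+ (limma adjusted p = 0.0664) and -1.62 in Aid-/- clones (adjusted p = 0.00972). The largest difference on the list was that of Gbx2, at 0.83 to 2.54 (median 1.91) against -1.74 to 1.88 (median 0.67), which overlapped and did not pass (adjusted p = 0.175). Klf2 lost its call in 10 of the 12 fits with a clone left out, Nr5a2 in 4 and Tbx3 in none.

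Genes of the primed epiblast, the later state that follows naive pluripotency, had a median difference of 0.71. On the list, 1 of 14 probes passed, against 1.80% lower and 1.27% higher over all probes. That was Otx2, which was 1.71-fold lower (adjusted p = 0.0307) at 3.68 to 4.04 (median 3.91) against 3.85 to 5.08 (median 4.77), opposite to the list's median. Otx2 lies on chromosome 14, which had the largest share of called gene probes. Dnmt3b, a de novo DNA methyltransferase of this list, had 3 probes with differences of 0.87 to 0.98 that did not pass (adjusted p = 0.191 to 0.212). The mean level of the list over its probes ran from 1.70 to 2.14 in the 979 clones and from 0.50 to 2.25 in the others.

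Metal-binding and oxidative response genes had 2 of 14 probes lower (1.80% over all probes), those of the metallothioneins Mt1 and Mt2, which bind zinc and other metals. Mt1 was at 7.16 to 7.98 (median 7.72) in the 979 clones and at 8.31 to 8.91 (median 8.37) in the others, 1.82-fold lower (adjusted p = 0.0238). Mt2 was at 8.01 to 8.54 (median 8.43) against 8.82 to 9.23 (median 8.85), 1.50-fold lower (adjusted p = 0.0278). Both genes are on chromosome 8, where 981E5 was raised, and 981E5 had the highest Mt1 and Mt2 signals. Without 981E5 both kept their call, but Mt2 lost it in 7 of the 12 fits that left out 1 clone (adjusted p up to 0.069) and Mt1 in 4 (up to 0.0581).

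The counts of the following lists stand against 1.80% lower and 1.27% higher over all probes. On the BMP target list 1 of 9 probes was lower, that of Id3, an inhibitor of bHLH factors (2.74-fold, adjusted p = 0.0426), with a list median of -0.36. Among ATF4 and amino acid response genes, 2 of 29 probes were lower, those of Sesn2 (1.45-fold, adjusted p = 0.018), a stress-induced inhibitor of mTORC1, and of Aars, the alanyl-tRNA synthetase. The Aars probe was well above background on 3 of 12 arrays, and its other probe differed by -0.26 (adjusted p = 0.383). Among p53 targets, 2 of 23 probes were lower, those of Plk2 (1.83-fold, adjusted p = 0.0348) and of Mdm2, the ligase that degrades p53 (1.37-fold, adjusted p = 0.0376). Cxcl10, a chemokine, was the 1 called probe of 29 on the interferon list (1.92-fold lower, adjusted p = 0.0395), and Dio3, the deiodinase of the Dlk1-Dio3 cluster, the 1 of 9 on that list (1.66-fold lower, adjusted p = 0.0258).

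Suz12, a subunit of the Polycomb complex that methylates H3K27, was the 1 called probe of 22 on the list of H3K9 and H3K27 modifiers, at 3.74 to 3.97 (median 3.90) against 4.17 to 4.50 (median 4.35) and 1.38-fold lower (adjusted p = 0.0172). Genes that were higher included Mkrn3, an imprinted gene expressed from the paternal allele, in both its probes (1.66-fold, adjusted p = 0.0133, and 1.58-fold, adjusted p = 0.00464) of 48 probes of imprinted genes outside Dlk1-Dio3. The glucose transporter Slc2a1 was the 1 called of 32 glycolysis probes (1.34-fold higher, adjusted p = 0.0427). Hes5, a Notch target of neural progenitors, was the 1 of 14 neuroectoderm probes (2.07-fold higher, adjusted p = 0.0307). Plk1, a mitotic kinase, was the 1 of 23 cell cycle probes (1.24-fold higher, adjusted p = 0.046).

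Of the 26 list probes called, 9 kept the call in every fit with 1 clone left out (Egr2, Atf3, Jun, Phlda1, Ier3, Tbx3, Sesn2 and both Mkrn3 probes). The other 17 lost it in 1 to 11 of the 12 fits, with adjusted p-values up to 0.113 for Plk1. Suz12 lost it in 1 fit, without 979F2. The calls of these 17 probes thus depended on which clones were included, also for larger differences such as those of Egr1 (3.38-fold lower) and Id3 (2.74-fold lower).

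No probe passed for 15 of the 30 lists. Over all probes 3.07% were called, so a short list can hold none without being unlike the rest of the array. Fibroblast markers had a median difference of 0.84 over 24 probes, and the mean level of those detected on all arrays ran from 0.30 to 1.68 in the 979 clones and from -2.34 to 1.41 in the others. The lowest were in clone 967B4, where the collagen genes Col1a1 and Col1a2 were at -3.57 and -3.79, against -0.40 to 2.01 and 0.75 to 3.84 in the other 11 clones. The part of these markers in the other differences was not tested. Markers of primitive endoderm (22 probes, median 0.04), mesoderm (16, -0.06) and trophoblast (11, 0.04) had no called probe either.

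The same held for the germline list (24 probes, median -0.24), the two-cell-like state (20, 0.41), the hypoxia response (23, -0.02), the unfolded protein response (15, -0.16) and heat shock genes (14, 0.08). It held also for DNA methylation enzymes and deaminases (31, 0.18), Wnt targets (15, -0.16), Nodal targets (10, -0.17), LIF targets (16, -0.03) and genes of strain-dependent copy number (13, 0.05). The Y-linked and Xist list (10 probes) had a median of -0.78, with 979F3 lacking Y-linked signal. The largest differences on lists with no called probe included S100a4 (1.81, adjusted p = 0.495), Bmp4 (-1.19, 0.0958), Sparc (-0.71, 0.0751), Krt18 (-0.77, 0.264), Herpud1 (-0.87, 0.144) and Adm (0.84, 0.0758), none of which passed.

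Within the genotypes, 396 probes (0.711%) differed between 979B and 967B and 1684 (3.02%) between 979F and the other Aid-/- clones at the adjusted p. Slide 3 held 979B and the other Aid-/- clones and therefore entered these comparisons with opposite sign, while it cancelled in their average. All 979F arrays were on slide 2 and all 967B arrays on slide 1, so the difference between these slides stayed in the average and cannot be told apart from that between the clones. All 581 probes past both thresholds had the same direction in both genotypes, 154 of them passed in Aid+/+ and 365 in Aid-/- clones on their own. The selection on the average favours a shared direction.

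The difference between experiments depended on genotype for 59 probes (0.106%) at the adjusted p, and for 5483 at an unadjusted p under 0.05. Of the 59, 7 were also past the adjusted p in the average. In simulated data the interaction recovered 7 of 100 probes changed by 1 on the log2 scale and 40 of 100 changed by 2. The comparison of the sides recovered 54 and 90, so the low count of 59 does not show that dependence on genotype was rare. Gbp2b, an interferon-induced guanylate-binding protein, was well above background in 3 clones, 981E1, 981E4 and 981E5, at -2.46 to -2.36, and in none of the other 9. It was thus at least 6.20-fold lower in 979F than in the other Aid-/- clones, with no fold in Aid+/+ clones (interaction adjusted p = 3.51e-05). Arsk, an arylsulfatase, differed by -0.26 in Aid+/+ clones and was at least 4.02-fold higher in 979F than in the other Aid-/- clones, none of which was well above background (interaction adjusted p = 0.000218), but its other probe showed a difference of 0.16 over both genotypes (adjusted p = 0.584). Gm3219 differed by 3.26 in Aid+/+ and by 0.86 in Aid-/- clones (adjusted p = 0.00993).

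The GTPase-activating protein Tagap differed by 1.04 in Aid+/+ and by -0.55 in Aid-/- clones (interaction adjusted p = 0.00653), and Stk3, a kinase of the Hippo pathway, differed by 1.70 and -0.38 (adjusted p = 0.01). Tmem54 differed by -0.91 in Aid+/+ and by 0.80 in Aid-/- clones (adjusted p = 0.00993). Adat2, a tRNA deaminase, differed by -1.16 and 0.07 (adjusted p = 0.0167), and Dhrs4, a dehydrogenase, by -1.42 and 0.54 (adjusted p = 0.0219).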

How the data were processed

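Each of the 12 clones had 1 one-colour Agilent array (Cy3-labelled RNA). The authors scanned the arrays and deposited, per the file headers, Feature Extraction tables whose processed intensity is corrected for background on each array. The authors' normalized log2 table, deposited too and made in GeneSpring per the methods, differed from the values used here by at most 0.00679 and served as an alternative. From the processed intensities, log2 was taken, control and outlier spots were left out, spots of a probe were averaged and the 75th percentile was subtracted. No spot was saturated on any array, and 31679 to 33648 of 55681 probes per array were well above background. The number of arrays limits the precision.

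Names came from accessions through a RefSeq table (GRCm38.p6, used for names, gene order and promoters), by which 27235 of 28685 probes with a RefSeq accession were matched. The design of the array is on mm9.

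Fits of the sides used lmFit and eBayes of limma 3.58.1 under R 4.3.3, with genotype as a covariate and 9 residual degrees of freedom. Genotype-specific differences and their interaction came from a fit of the 4 series means. The fits were tested on simulated data. A probe not well above background on any array of a side, or of a series within a genotype, has only a bound, the mean of the other side over the lowest signal called above background per array. Python 3.11.15 with pandas 2.3.3, numpy 2.4.6 and matplotlib 3.10.9 was used for sequences, checks and plots.

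The members and lists were chosen with earlier results of these data known. Genes were named by a rule: in each direction the 12 with the largest difference past both thresholds and well above background on all 6 arrays of the higher side, list members past the adjusted p, the largest difference per list, 4 per direction of the interaction, and at most 3 lincRNA probes. Genes outside the rule are marked as such. The result of 1 list member is not reported here. Alternatives were the background correction, the normalization, dim-probe filters, the t-test of the methods, trend and robust estimation, other covariates and blocks, subsets of clones, thresholds and leaving out each clone.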

Additional observations from a re-analysis of the deposited data

Results flagged for a closer look

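In 7 of 102 groups of 6 clones (a named gene on 1 side), 1 clone lay far from the other 5, and chance gives about 1 in 20. Edn1 was at -4.15 in 967B4, with the nearest of the other comparison clones at -2.42. Clone 981E5 was the far clone for Mt2 (9.225), Slc2a1 (5.786) and Dio3 (-3.494). Clone 981E4 was the far clone for Otx2 (3.852) and for the lincRNA region of chromosome 16 (-5.755), and 979B1 for Mkrn3 (-0.1351).

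By the interaction contrast of limma, the difference between the 979 and the other clones was unlike in Aid+/+ and Aid-/- clones for 9 genes named in the report. The comparison series differed with genotype, so genotype and clone series cannot be told apart in this contrast. The Aid+/+ difference minus the Aid-/- difference was 4.66 for Gbp2b, 2.41 for Gm3219, 2.08 for Stk3 and 1.59 for Tagap. It was -3.88 for Arsk, -2.29 for Cldn5, -1.96 for Dhrs4, -1.71 for Tmem54 and -1.23 for Adat2. The values of Gbp2b and Arsk rest on series not well above background and are not sizes of a change.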

How the results depend on the processing

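Of the 581 probes past both thresholds, those tested under an alternative (552 and 260 under the dim-probe filters, 581 otherwise) kept their direction, which their selection on the same clones favours, except 2 within slide 3 (979B against the other Aid-/- clones, where genotype and experiment cannot be told apart). The counts moved more. Against 218 higher and 363 lower, normexp background correction gave 43 and 103, the filter to probes well above background on all arrays 105 and 215, the methods' t-test 106 and 210, Aid+/+ clones alone 22 and 22 (Aid-/- clones alone 180 and 244), an adjusted p under 0.01 81 and 180, and the adjusted p alone 706 and 1003. Without both 967B4 and 981E5, 570 were lower. With 1 clone left out, 125 to 308 were higher and 258 to 537 lower; the lowest counts of higher probes came without 979F1 (125), 979F3 (139) and 979F2 (141). The interaction gave 59 probes, 109 with quantile normalization, 103 with the filter and 14 to 170 with 1 clone left out, the highest without 967B4. Chromosome 14 gave 111 called probes without 967B4 and 981E5, and chromosome 8 gave 19 to 44 lower probes without 1 of them, 52 without both and 38 with a random block for clone series. Over the whole array, probes past both thresholds also rose from 581 to 845 without 967B4, 872 without both and 781 with that block. The cause was not tested. The random blocks had correlations of -0.02 for slide and -0.08 for clone series.

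Of 2084 values of named genes under the alternatives, 1721 kept direction and side of the threshold, 329 no longer passed, 30 newly passed and 4 turned direction. The interaction call was lost for Cldn5 in 9, Dhrs4 in 8, Adat2 in 5 and Stk3 in 1 of 16 alternatives. The 4 values that turned were of genes that did not pass with all clones: within slide 3, S100a4 (-0.61), Dlk1 (-0.27) and Ccnd2 (-0.27), and in Aid+/+ clones Aldoc (0.33). No paired analysis was possible because the clone numbers of the groups compared share fewer than 2 values (only clone 4 in 979B and 967B, only clone 1 in the Aid-/- series).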
